A study of Mus musculus with 12 samples.

Results

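The tripartite motif (TRIM) genes of the mouse were followed in melanoma tumours grown in hosts with or without an inducible deletion of Trex1. Members were the protein-coding rows of the deposited count table whose symbol is Trim followed by a number, with or without a letter. The rule gave 67 genes of the table's 54532 rows, 22046 of which are protein-coding. Of the 67, 10 lie together on chromosome 7 (the Trim12/Trim30 cluster) and 57 lie elsewhere.

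RNA was sequenced in 12 libraries from tumours of B16F10, a pigmented mouse melanoma line that carries Trex1 in its wild-type form in both groups. A suspension of 1000 cells in Matrigel was injected into the skin of each leg. Hosts were male and 8 to 12 weeks old. Hosts of the 6 Ctrl libraries were Trex1 wt/fl-R26CreERT2-ki/wt and hosts of the 6 iKO libraries were Trex1 fl/fl-R26CreERT2-ki/wt. R26CreERT2 is a Cre recombinase driven from the broadly expressed Rosa26 locus and switched on by tamoxifen, so deletion is not limited to 1 cell type of the host. Every host, Ctrl included, carried this Cre and at least 1 floxed Trex1 copy. Every host also received tamoxifen, 1 mg a day for 3 days from day 5. Tumours were taken on day 14, digested with enzymes and sorted. The cell type label says that the sorted cells lacked both CD45 (leukocytes) and CD31 (endothelium), whereas the protocol text says that they lacked CD45 or CD31. Libraries are not tied to mice in the labels, and a mouse had a tumour on each leg, so the p-values measure only the spread between these libraries.

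TRIM proteins carry a RING domain that makes most of them ubiquitin ligases, followed by B-box and coiled-coil domains and a C-terminal domain that selects the target. The SPRY domain is the most frequent C-terminal domain, and other members end in NHL repeats, a PHD-bromodomain pair, a MATH domain or a membrane anchor. Many members with a SPRY domain are induced by interferon and act in the cell's defence against viruses. The rodent cluster on chromosome 7 is a set of SPRY members that arose by repeated gene duplication and includes the mouse relatives of the retroviral restriction factor TRIM5. Trex1 encodes an exonuclease that degrades DNA in the cytosol, and loss of it is known to set off an interferon response.

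Trex1 itself had 0 counts throughout, so it gives no check of the genotypes in the labels. Library totals ran from 29.8 to 45.8 M counts, and levels are given in CPM, counts scaled to the library total after TMM adjustment. At this depth 0 counts can hide up to 3, which is 0.0642 to 0.102 CPM by library and covers counting error only. Along the first principal component, which held 70.4% of the variance, Ctrl 5 (-17.1) and iKO 1 (-0.97) stood apart from their groups. The rest of Ctrl lay from -91.6 to -74.4 and the rest of iKO from 76.3 to 104.4. Xist, an RNA of female cells, had 6869 counts in iKO 2 and 4124 in iKO 3, where the labels call all hosts male. It had 247 counts in iKO 4 and at most 40 in the other libraries. Genes of the Y chromosome had 44 counts in iKO 2 and 0 in iKO 3, beside 1298 to 1513 in iKO 4, iKO 5 and iKO 6. They had 239 counts in iKO 1 and 107 to 254 in Ctrl. Results that rest on Ctrl 5, iKO 1, iKO 2 or iKO 3 are given with and without them. Pigment cell markers summed to 21525 to 21914 CPM in Ctrl and 15037 to 21431 CPM in iKO, and 6 of the 7 fell. Leukocyte markers were present despite the sort: 9 of 10 rose, and their sum ran from 302 to 508 CPM in Ctrl and from 451 to 2389 CPM in iKO. Ctrl 5 was the highest Ctrl library and iKO 1 the lowest iKO library for this sum. Most of the sum in Ctrl was Arhgdib, the marker that did not rise (mean 248 CPM). Ptpn6 and Lcp1 had Ctrl means of 41.2 and 34.8 CPM. Means of the remaining markers ran from 0.877 (Cytip) to 8.34 CPM (Itgb2) in Ctrl and from 29.0 (Cytip) to 206 CPM (Laptm5) in iKO. In bulk libraries, fewer cells of a type and less RNA per cell cannot be told apart.

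Of the 67 TRIM genes, 50 had enough counts to be tested. In iKO, 19 of the 50 were higher (38%) and 7 were lower (14%), beside 25.0% higher and 21.4% lower among all 16164 genes tested (edgeR quasi-likelihood test, adjusted p under 0.05). The remaining 24 did not pass. At a rise of at least 1 on the log2 scale, 13 of the 50 passed, beside 11.7% of all genes. The median log2 fold change was 0.17 over the tested members and 0.02 over all genes tested. The higher members had a median of 2.07 and the lower members a median of -0.27, so the rises covered a much wider range than the falls. For 15 of the 50 members, beside 22.9% of all genes, the Ctrl and iKO libraries did not overlap at all, 11 with iKO higher and 4 with iKO lower, beside 11.8% and 11.1% of all genes in those directions. Without Ctrl 5 and iKO 1, the groups stood apart for 17 members with iKO higher and 6 with iKO lower of the 50, beside 19.6% and 15.9% of all genes.

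**Figure D1:**
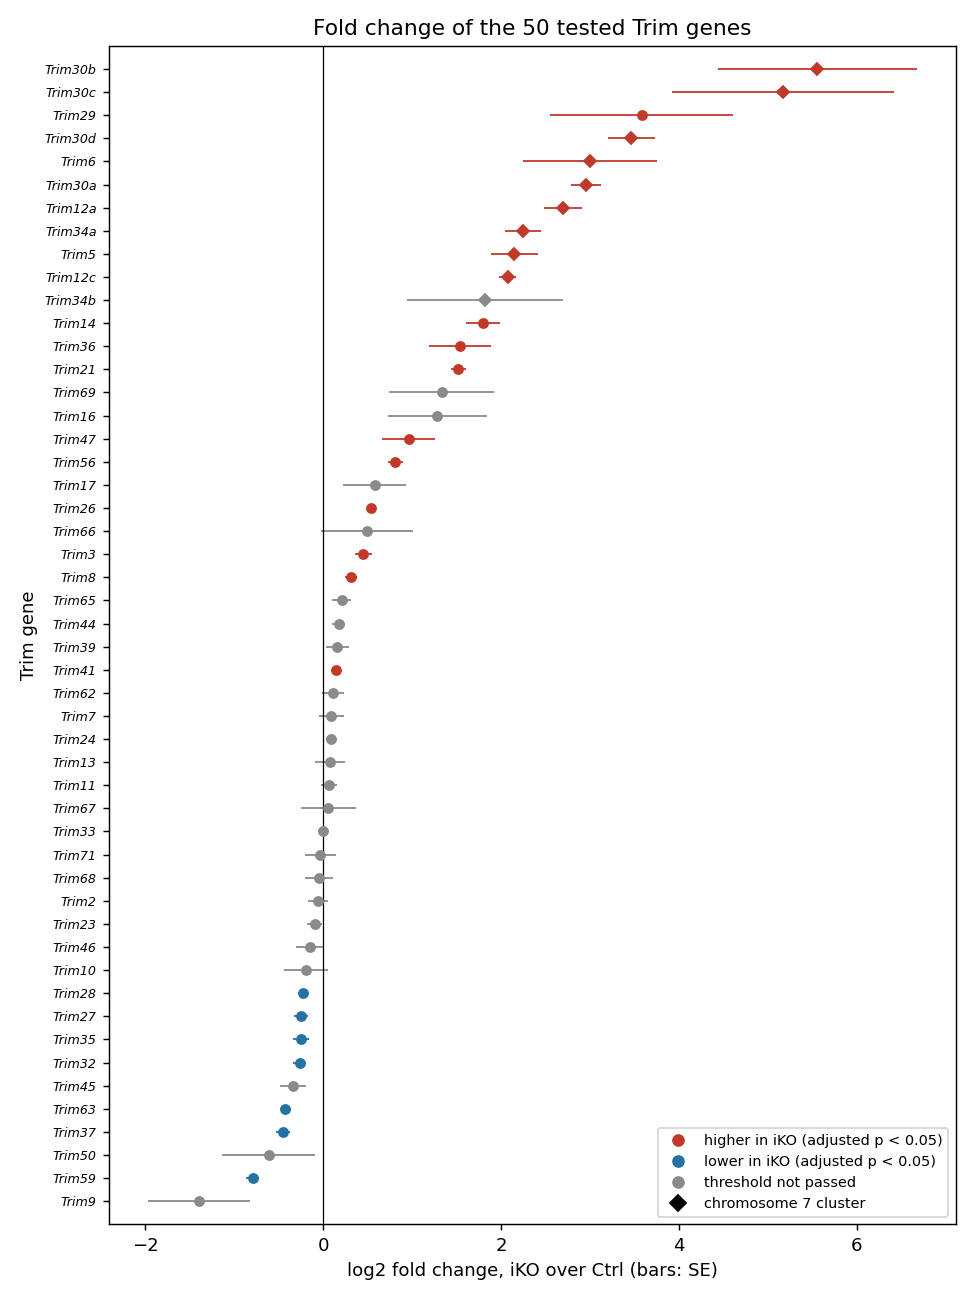
log2 fold change of iKO over Ctrl (horizontal axis, bars are the standard error) for the 50 tested TRIM genes, ordered from the largest rise to the largest fall, with diamonds for the chromosome 7 cluster and colours for the test result. The 10 cluster genes lie between 1.82 and 5.56, while the 7 lower genes lie between -0.79 and -0.23.

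Of the 13 members that rose by at least 1, 9 lie in the chromosome 7 cluster. In the cluster 9 of 10 members were higher and none lower, with a median log2 fold change of 2.83. Outside it 10 of 40 tested members were higher (25%) and 7 lower (17.5%), beside 25.0% and 21.4% of all genes. The median outside the cluster was 0.08, and the share of higher members there was that of all genes. Trim6, Trim30b and Trim30c passed the filter on low counts mostly through their iKO libraries, so the cluster's count and median are descriptions.

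The cluster spans 289.1 kb of chromosome 7 (mm10, chr7:104218793-104507849), with 3 members on the plus strand and 7 on the minus strand. In the order of the coordinates it holds Trim6, Trim34a, Trim5, Trim12a, Trim34b, Trim12c, Trim30b, Trim30c, Trim30a and Trim30d. The deposited table has 17 rows in this window, and the other 7 are pseudogenes, antisense transcripts and small nuclear RNAs with at most 24 counts in any library.

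Trim30a (ENSMUSG00000030921, chr7:104409025-104465193, minus strand), a SPRY member known to restrain signalling downstream of Toll-like receptors, had the highest level of the cluster. It ran from 12.6 to 15.3 CPM in Ctrl with a median of 14.3, and from 56.8 to 128 CPM in iKO with a median of 118. All 6 iKO libraries lay above every Ctrl library, with iKO 1 alone below 116 CPM. The log2 fold change was 2.96 (SE 0.17, edgeR adjusted p = 9.15e-08). Trim30d (chr7:104470014-104507849, minus strand) lies beside it and ran from 2.12 to 4.02 CPM in Ctrl, median 2.70, and from 13.0 to 40.6 CPM in iKO, median 33.7. Its groups did not overlap either, the lowest iKO library again was iKO 1, and the log2 fold change was 3.47 (SE 0.27, edgeR adjusted p = 1.55e-06).

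Trim30b (chr7:104355382-104369884) and Trim30c (chr7:104382065-104400837), also on the minus strand, were nearly absent from Ctrl. Trim30b had 0 counts in 3 Ctrl libraries, 2 counts each in Ctrl 4 and Ctrl 6, and 26 counts (0.716 CPM) in Ctrl 5. In iKO it ran from 0.646 CPM in iKO 1 to 12.6 CPM, median 5.99. Only iKO 1 overlapped with a Ctrl library, Ctrl 5. The log2 fold change was 5.56 (SE 1.12, edgeR adjusted p = 0.00223) and 8.11 without Ctrl 5. All 24 Ctrl counts of Trim30c were in Ctrl 5 (0.661 CPM), and its iKO libraries ran from 0.194 CPM in iKO 1 to 6.28 CPM, median 3.91. The log2 fold change was 5.17 (SE 1.25, edgeR adjusted p = 0.00598). Without Ctrl 5 the 757 iKO counts of Trim30c stood against 0 Ctrl counts. It was then about 269-fold higher when the other Ctrl libraries together are set at 3 counts, a floor for counting error only. With all libraries the iKO mean of Trim30c was 35.1-fold the Ctrl mean, so the size of the rise depends on Ctrl 5.

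Trim12a, Trim12c and Trim5 are the mouse members nearest to TRIM5 of primates, which binds the capsid of incoming retroviruses. Trim12c (chr7:104338754-104353362, minus strand) ran from 8.43 to 10.9 CPM in Ctrl, median 10.1, and from 32.3 to 45.9 CPM in iKO, median 44.0. Relative to their mean, its iKO libraries varied the least of the cluster, and the log2 fold change was 2.07 (SE 0.10, edgeR adjusted p = 4.20e-09). Trim12a (chr7:104299894-104315466, minus strand) ran from 2.78 to 4.46 CPM in Ctrl, median 3.97, and from 12.7 to 35.8 CPM in iKO, median 25.0. Trim5 (chr7:104263386-104288094, minus strand) ran from 0.960 to 1.82 CPM in Ctrl, median 1.41, and from 2.71 to 8.96 CPM in iKO, median 6.48. Neither gene's groups overlapped. Their log2 fold changes were 2.70 (SE 0.21) and 2.15 (SE 0.27), with edgeR adjusted p of 1.00e-06 and 3.77e-05.

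The 3 members on the plus strand were less uniform. Trim34a (chr7:104244457-104262234) ran from 2.01 to 3.43 CPM in Ctrl, median 2.60, and from 7.62 to 17.1 CPM in iKO, median 11.4. The groups did not overlap, and the log2 fold change was 2.25 (SE 0.21, edgeR adjusted p = 2.80e-06). Trim6 (chr7:104218793-104235152), a ligase that activates the kinase IKKε in interferon signalling, was low throughout. It ran from 0 to 0.373 CPM in Ctrl, median 0.0877, and from 0.0646 to 1.56 CPM in iKO, median 1.30. Only iKO 1 fell within the range of Ctrl, and the log2 fold change was 3.00 (SE 0.75, edgeR adjusted p = 0.00517), or 3.71 without Ctrl 2. Trim34b (chr7:104329471-104336909), a close copy of Trim34a, was the only member of the cluster that did not pass. It ran from 0 to 0.677 CPM in Ctrl, median 0.101, and from 0.128 to 1.29 CPM in iKO, median 0.870. Its groups overlapped in iKO 1 and iKO 2, and the log2 fold change was 1.82 (SE 0.88, edgeR adjusted p = 0.107), or 2.70 without Ctrl 2 (adjusted p = 0.0304).

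**Figure D2:**
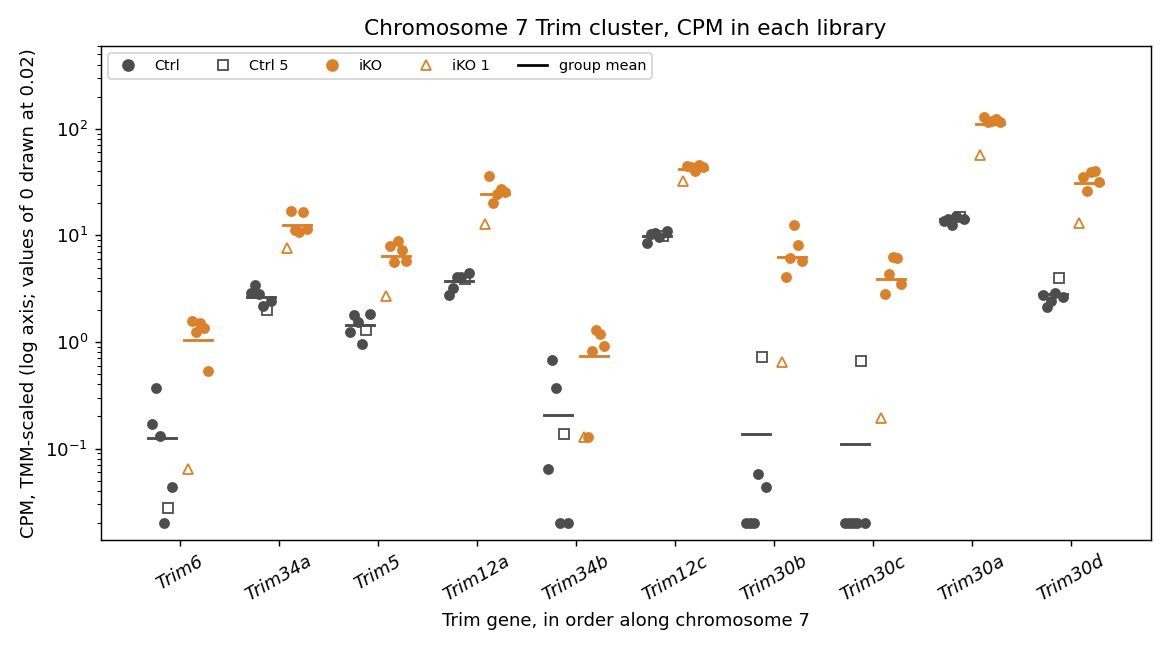
CPM of the 10 cluster genes in each library (vertical log axis, values of 0 drawn at 0.02), in order along the chromosome, with open symbols for Ctrl 5 and iKO 1 and lines at the group means. For Trim34a, Trim5, Trim12a, Trim12c, Trim30a and Trim30d every iKO point lies above every Ctrl point, and iKO 1 is the lowest iKO point of each of these 6.

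**Figure D3:**
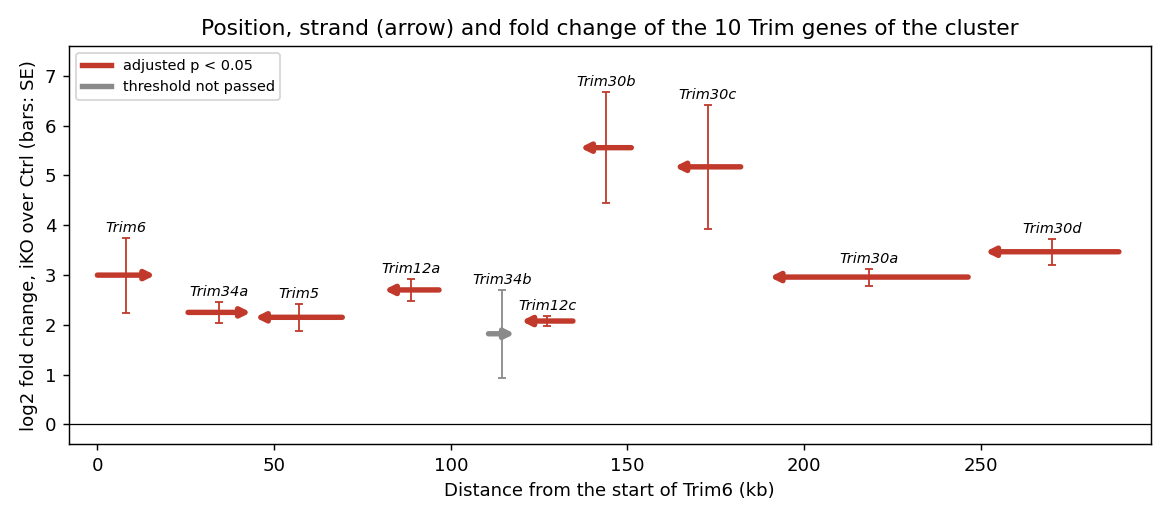
Position and strand of the 10 cluster genes (arrows, distance in kb from the start of Trim6) against their log2 fold change of iKO over Ctrl, with standard error bars. The 2 largest values, 5.56 for Trim30b and 5.17 for Trim30c, belong to neighbours in the middle of the cluster, and the 1 grey arrow is Trim34b.

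Per kilobase of exon, the cluster summed to 8.35 to 9.65 CPM in Ctrl, to 32.1 CPM in iKO 1 and to 60.5 to 71.7 CPM in the rest of iKO. Trim30a made up 34.3% to 41.9% of that sum in Ctrl and 41.8% to 46.7% in iKO. The share of Trim30a was thus slightly higher in iKO, with ranges that touch, while the sum was several-fold higher.

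Sequences around the starts of the cluster genes are shown because its members moved together and some of them are near copies of each other. RefSeq gives promoter windows (GRCm38.p6, 250 bases before to 50 bases after a start) for 52 of the 67 TRIM genes. They were searched on both strands for GAAA, any 2 bases and GAAA, the core of the interferon-stimulated response element (ISRE), to which the interferon-activated complex ISGF3 and interferon regulatory factors bind. These letters were found in 1079 of 27024 genes with a window (3.99%). Among the TRIM genes they were found for 8 of 14 higher members, 0 of 6 lower members, 1 of 18 members that did not pass and 0 of 14 untested members. In the cluster 6 of 10 members had a match, and outside it 3 of 42. Before the RefSeq start, the match lies at 27 to 36 bases for Trim30a and 32 to 41 for Trim30d. For Trim5 it lies at 40 to 49 bases and for Trim12c at 20 to 29 bases before the start. Those of Trim12a and Trim34a lie 11 to 20 bases past the start. The matches of the cluster are printed with 10 bases on each side and the motif in capitals, on the strand that reads GAAA.
Trim30a (chr7:104465210-104465239, plus strand): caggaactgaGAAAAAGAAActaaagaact
Trim30d (chr7:104507871-104507900, plus strand): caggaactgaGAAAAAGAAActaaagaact
Trim12a (chr7:104315466-104315495, plus strand): ctctggaaatGAAACAGAAAccacaactct
Trim5 (chr7:104288136-104288165, plus strand): ctctggaaatGAAACAGAAAccacaactct
Trim12c (chr7:104353359-104353388, plus strand): agctggaaatGAAACAGAAAccacaactct
Trim34a (chr7:104244457-104244486, minus strand): gcagagaaaaGAAACTGAAActccaaacca

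The 30 bases of Trim30a and Trim30d were identical, as were those of Trim12a and Trim5, and Trim12c shared 28 of 30 bases with the latter pair. Trim30a has a further RefSeq start 19068 bases inside the gene, whose window also held a match. A longer spelling that goes on with CT, in 0.303% of all genes, was found for Trim30a, Trim30d and Trim34a. The cluster members without a match to the ISRE core were Trim6, Trim34b, Trim30b and Trim30c. For Trim30b the RefSeq start lies 11238 bases from the start of the gene in the deposited table, so its window is not at that start. Outside the cluster the same holds for Trim28 (25038 bases), Trim47 (16975), Trim38 (12628) and Trim44 (6928), which have no other window. The letters TTC, any 3 bases and GAA, a STAT site, occurred in 9.55% of all genes and in the cluster in the window of Trim30c alone. A match describes the letters of these windows and is no measurement of binding.

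The 120 bases before the start of Trim30a and of Trim30d are printed on the strand of the genes (minus), 5′ to 3′, with the motif in capitals as its reverse complement.
Trim30a (chr7:104465194-104465313): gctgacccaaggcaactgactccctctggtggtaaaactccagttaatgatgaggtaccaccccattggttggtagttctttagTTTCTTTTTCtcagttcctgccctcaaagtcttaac
Trim30d (chr7:104507850-104507969): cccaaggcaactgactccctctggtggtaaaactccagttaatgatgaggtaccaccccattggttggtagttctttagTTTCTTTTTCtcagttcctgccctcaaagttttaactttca

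These stretches shared an unbroken run of 109 bases that includes the motif. The longest run that Trim30a shared with the 120 bases before the RefSeq start of Trim30c was 16 bases. Those 16 bases end the Trim30a stretch but lie near the far end of the Trim30c stretch. The RefSeq start of Trim30c is 59 bases from the gene start in the deposited table. The 2 stretches thus cover different positions, and the run cannot tell how alike the promoters are. Trim30a and Trim30d, which share the run of 109 bases, had log2 fold changes of 2.96 and 3.47. Trim30c had 5.17 but was close to 0 in 5 of 6 Ctrl libraries.

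Near copies can also share reads. Of the stretches of 100 bases in the transcripts of Trim30a and Trim30d, 4.41% and 4.57% occurred in the other gene. Trim30b and Trim30c shared none with any other gene. Of those of Trim34a, 21% occurred in Trim34b, and 30.47% of those of Trim34b occurred in Trim34a, so the split of reads between these genes is uncertain. With any gene counted the share was 38.98% for Trim34a and 11.66% for Trim5. The libraries did not keep strand, and 23.5% of the exon bases of Trim34a overlap the antisense gene Gm47248, which had 0 counts in all libraries.

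Most leukocyte markers (9 of 10) were higher in iKO, as the cluster was. In Ctrl 5, where their sum was the highest of Ctrl, the cluster summed to 9.65 CPM per kb. It summed to 8.35 to 9.59 CPM per kb in the other Ctrl libraries and to 32.1 CPM per kb in iKO 1. The mean log2 CPM of the 10 leukocyte markers ran from 1.20 to 2.32 in 5 Ctrl libraries, was 4.58 in Ctrl 5 and 4.22 in iKO 1, and ran from 6.78 to 7.62 in the other iKO libraries. Macrophage markers (8 of 8 higher) summed to 14.6 to 38.0 CPM in 5 Ctrl libraries, 284 CPM in Ctrl 5, 204 CPM in iKO 1 and 939 to 1767 CPM in the rest of iKO. T cell markers (6 of 6 higher) summed to at most 2.26 CPM in Ctrl and to 4.84 to 75.8 CPM in iKO. Dendritic cell markers (3 of 3 tested higher) summed to 0.737 to 5.76 CPM in Ctrl and to 4.55 to 88.8 CPM in iKO. Several of these markers, among them the T cell markers and Xcr1 of the dendritic cells, passed the filter on low counts through their iKO libraries. The counts of higher markers are therefore descriptions. Of the B cell markers, Ms4a1 was at 0 in all Ctrl libraries and at most 0.589 CPM in iKO, and Cd79b reached at most 0.248 CPM in Ctrl against a range of 0.129 to 5.56 CPM across iKO. Endothelial markers (3 of 5 higher) summed to 11.5 to 16.3 CPM in Ctrl, 13.8 CPM in iKO 1 and 36.3 to 52.9 CPM in the rest of iKO. Of 6 fibroblast markers none passed, but their sum was 14569 CPM in iKO 2 and 10069 CPM in iKO 5 beside 582 to 2374 CPM in the other iKO libraries and 2247 to 2567 CPM in Ctrl. The part of these cells in the results was not tested.

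Ctrl 5 and iKO 1 had similar leukocyte scores, and the cluster members differed in how they stood in this pair. Trim30a was at 14.7 CPM in Ctrl 5 and 56.8 CPM in iKO 1. Trim12c was at 9.86 and 32.3 CPM and Trim30d at 4.02 and 13.0 CPM. Those members were thus higher in iKO 1 by several-fold. Trim30b was at 0.716 and 0.646 CPM and Trim30c at 0.661 and 0.194 CPM, so neither was higher in iKO 1. The pair is 1 library against 1 and gives no test.

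With the leukocyte score as a covariate, 10 of the 50 members were higher and 1 lower, beside 5.67% and 5.94% of all genes. In the cluster 5 were higher: Trim30a (log2 fold change 2.07), Trim30d (1.83), Trim12a (1.88), Trim12c (1.81) and Trim34a (2.20). Trim30b was at 0.24 (edgeR adjusted p = 0.883) and Trim30c at -1.24 (adjusted p = 0.525). The score and the group are nearly separated in these libraries, so this fit has little information on their separate parts. No library was measured by cell type, and the part of leukocyte RNA in the other members was not tested beyond this fit.

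**Figure D4:**
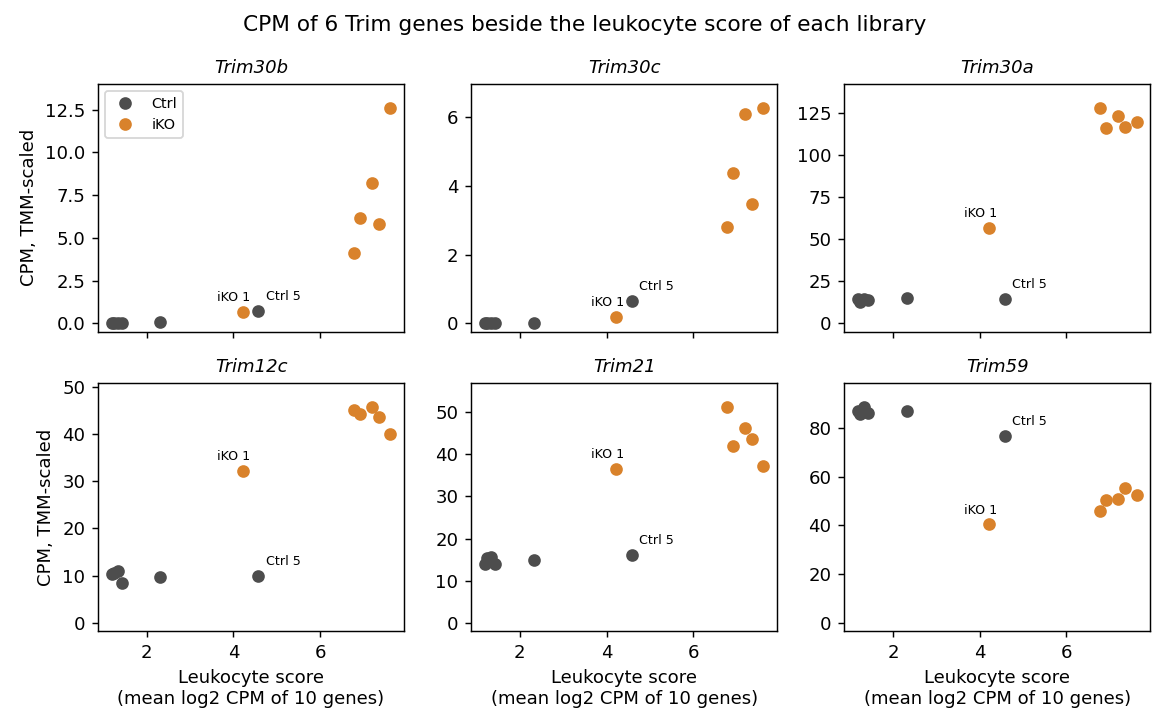
TMM-scaled CPM of 6 TRIM genes (vertical axes) against the leukocyte score, the mean log2 CPM of 10 markers (horizontal axes), with 1 point per library. At similar scores, iKO 1 lies above Ctrl 5 for Trim30a, Trim12c and Trim21, below it for Trim30b and Trim30c by less than 1 CPM, and below it for Trim59.

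Outside the cluster, Trim21, Trim14, Trim36 and Trim29 rose by at least 1 on the log2 scale. Trim21 (chr7:102557921-102565486, minus strand), a cytosolic receptor for antibody bound to viruses, lies on chromosome 7 ahead of the cluster. It ran from 13.9 to 16.0 CPM in Ctrl, median 15.1, and from 36.6 to 51.3 CPM in iKO, median 42.9. The groups did not overlap, and the log2 fold change was 1.52 (SE 0.09, edgeR adjusted p = 2.87e-08), or 1.29 with the leukocyte covariate (adjusted p = 0.00134). Trim21 was at 16.0 CPM in Ctrl 5 and 36.6 CPM in iKO 1. The window of Trim21 held 2 overlapping matches to the ISRE core, 14 to 29 bases past the start, of which the first is printed on the minus strand.
Trim21 (chr7:102565450-102565479): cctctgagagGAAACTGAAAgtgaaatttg

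Trim14 (chr4:46493781-46536141, minus strand), a member without a RING domain that acts at the mitochondrial antiviral adaptor MAVS, ran from 2.12 to 3.87 CPM in Ctrl, median 2.95, and from 6.49 to 13.0 CPM in iKO, median 10.4. The groups did not overlap and the log2 fold change was 1.79 (SE 0.19, edgeR adjusted p = 1.24e-05). Of its exon bases, 31.3% overlap Nans on the opposite strand, and reads of these genes cannot be told apart there. Trim36, a member with a COS box and a fibronectin domain, ran from 0.722 to 1.47 CPM in Ctrl, median 0.966, and from 1.03 to 5.16 CPM in iKO, median 2.80. Only iKO 1 fell within the Ctrl range, and the log2 fold change was 1.54 (SE 0.35, edgeR adjusted p = 0.00258). With the leukocyte covariate neither gene passed, with Trim14 at 1.10 (adjusted p = 0.0954) and Trim36 at 0.26 (adjusted p = 0.895).

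Trim29 (chr9:43310848-43336115, plus strand), known from squamous epithelia and from lung macrophages, depended on 1 library for the size of its rise. It ran from 0.248 to 0.895 CPM in Ctrl, median 0.424, and from 0.356 to 28.4 CPM in iKO, median 2.14, where the 28.4 CPM of iKO 2 stood against at most 3.43 CPM in the others. The keratins Krt5 and Krt14, epithelial genes looked at after these values were seen, were at 93.0 and 43.9 CPM in iKO 2 and at most 8.30 and 3.56 CPM elsewhere, and their part in the result was not tested. The log2 fold change of Trim29 was 3.58 (SE 1.02, edgeR adjusted p = 0.0147). It was 1.78 without iKO 2 (adjusted p = 0.0110) and 1.40 without both iKO 2 and iKO 3 (adjusted p = 0.0423). Trim29 did not pass with limma voom (adjusted p = 0.115), the replicate block (0.0841) or the leukocyte covariate (0.329).

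The other 6 higher members rose by less than 1. Trim56 (chr5:137105644-137116209, minus strand), which binds viral RNA and promotes STING and cGAS signalling, went from 56.5 ± 7.59 to 99.1 ± 7.04 CPM (SD, n = 6 libraries each), a log2 fold change of 0.81 (SE 0.09, edgeR adjusted p = 1.22e-05). Trim26 (chr17:36837134-36859398, plus strand), a regulator of IRF3 and TBK1 signalling, went from 51.1 ± 2.04 to 74.4 ± 5.09 CPM, a log2 fold change of 0.54 (SE 0.06, edgeR adjusted p = 8.68e-06). The groups of Trim56, of Trim26 and of Trim3 did not overlap. Trim3, an NHL-repeat ligase best known in neurons, went from 29.5 ± 1.45 to 40.3 ± 6.19 CPM (log2 fold change 0.45). Trim8, a RING ligase tied to cytokine and NF-κB signalling, went from 59.4 ± 3.60 to 73.7 ± 6.60 CPM (0.31), with iKO 1 inside the Ctrl range.

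Trim56 and Trim26 also passed with the leukocyte covariate, at log2 fold changes of 1.29 and 0.51. Trim3 (0.20, adjusted p = 0.583), Trim8 (0.09, adjusted p = 0.755) and Trim41 (0.17, adjusted p = 0.432) did not. The window of Trim26 held 2 overlapping matches to the ISRE core between 145 and 160 bases before the start, of which the nearer is printed on the minus strand, and that of Trim56 held none.
Trim26 (chr17:36836982-36837011): ccgggcccgaGAAAAGGAAAgtgaaatcgg

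Trim47 and Trim41, SPRY ligases, were the other members that rose by less than 1. Trim47 ran from 3.19 to 6.03 CPM in Ctrl and from 2.90 to 13.4 CPM in iKO, with Ctrl 5 the highest Ctrl library and iKO 1 below all of Ctrl. Its log2 fold change was 0.96 (SE 0.30, edgeR adjusted p = 0.0166), and -0.66 with the leukocyte covariate (adjusted p = 0.487). Trim41 went from 70.0 ± 3.86 to 77.4 ± 4.30 CPM, a log2 fold change of 0.15 (SE 0.05, edgeR adjusted p = 0.0391). The call of Trim41 did not hold without Ctrl 1 (adjusted p = 0.0591), iKO 2 (0.0563), iKO 4 (0.0869), iKO 5 (0.0543) or iKO 6 (0.0659).

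The 7 lower members fell by less than 1 on the log2 scale. Trim59, Trim37, Trim63, Trim28 and Trim32 were each the only lower member of their domain group, and Trim27 and Trim35 carry a SPRY domain. Trim59 (chr3:69035288-69044755, minus strand), a membrane-anchored member reported at high levels in dividing and tumour cells, fell the most. It ran from 76.7 to 88.8 CPM in Ctrl, median 86.7, and from 40.4 to 55.4 CPM in iKO, median 50.8, and the groups did not overlap. The log2 fold change was -0.79 (SE 0.07, edgeR adjusted p = 2.56e-06), and -0.92 with the leukocyte covariate (adjusted p = 0.00466). Trim59 was at 76.7 CPM in Ctrl 5 and 40.4 CPM in iKO 1, the lowest library of each group.

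Trim37, a peroxisome and centrosome ligase with a MATH domain, went from 107 ± 4.23 to 78.3 ± 10.3 CPM, a log2 fold change of -0.45 (SE 0.08, edgeR adjusted p = 0.000472). Trim63, also called MuRF1 and known for protein breakdown in muscle, went from 53.7 ± 3.10 to 40.0 ± 3.02 CPM, a log2 fold change of -0.43 (SE 0.06, edgeR adjusted p = 0.000152). Neither overlapped between groups. Of 5 skeletal muscle markers none fell and 3 rose, with a sum of 45.8 CPM in iKO 2 and 47.0 CPM in iKO 5 beside 4.42 to 9.60 CPM in the other iKO libraries and 4.44 to 6.35 CPM in Ctrl. Trim28, the corepressor of KRAB zinc-finger proteins that silences retroelements, went from 404 ± 10.2 to 345 ± 21.1 CPM, and its groups did not overlap although the log2 fold change was only -0.23 (SE 0.05, edgeR adjusted p = 0.00260). Pigment cell markers, which stand for the tumour cells, had a median log2 fold change of -0.42, near the values of Trim37 and Trim63, and the part of a lower tumour cell share in them was not tested.

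Trim32, an NHL-repeat ligase, Trim27, a SPRY ligase of the nucleus and endosomes, and Trim35, a SPRY ligase tied to glucose metabolism, fell by 0.27, 0.25 and 0.25 on the log2 scale, with overlapping groups. Trim35 was at 200.1 CPM in iKO 1, inside the Ctrl range of 172 to 205 CPM, and at 139.9 to 159 CPM in the rest of iKO. The edgeR adjusted p of Trim35 was 0.0268. The call did not hold without Ctrl 1 (0.0547), Ctrl 2 (0.0813), Ctrl 3 (0.0977), iKO 2 (0.0595), iKO 4 (0.0610) or iKO 5 (0.0586). It held in the other fits that left out 1 library, the fit without iKO 1 among them. Over all such fits the log2 fold change of Trim35 ran from -0.33 to -0.20 and the edgeR adjusted p from 0.000661 to 0.0977. In the fit with the leukocyte covariate Trim59 was the only lower member.

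**Figure D5:**
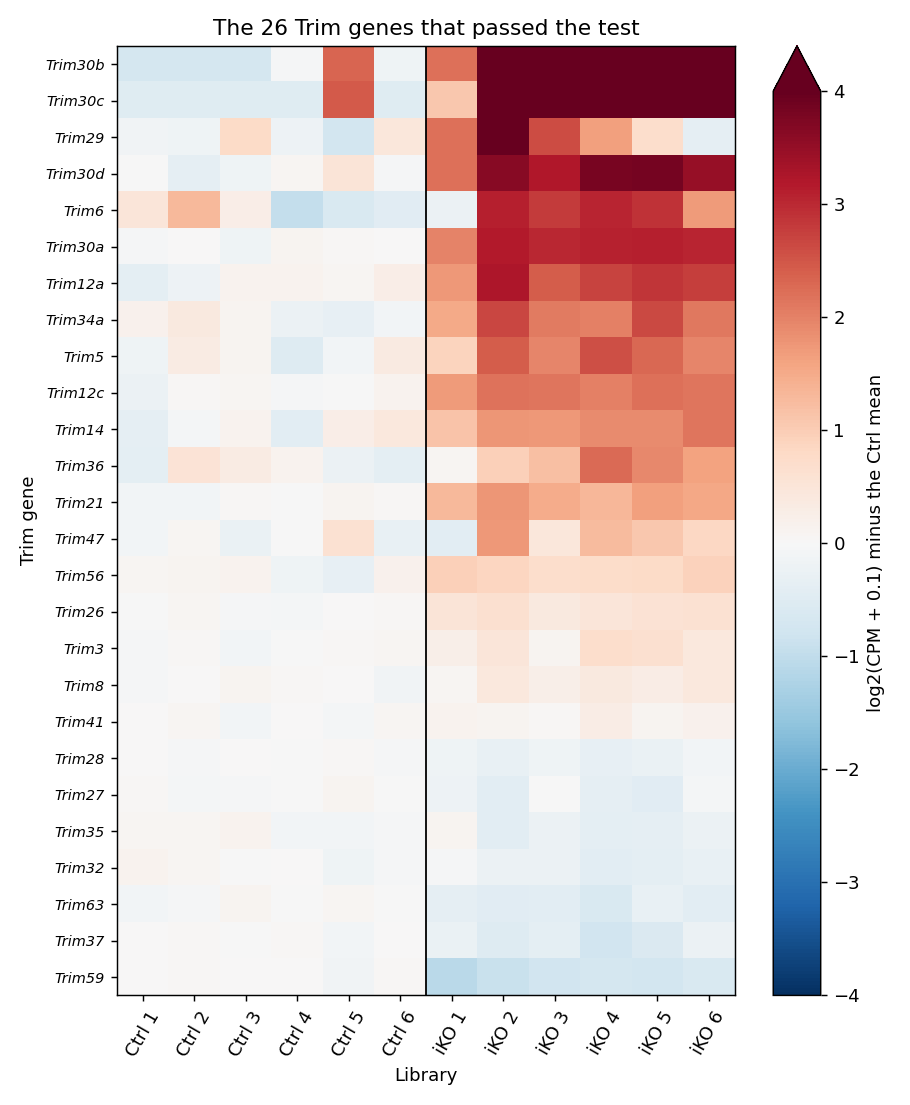
log2(CPM + 0.1) minus the Ctrl mean of each gene (colour scale, values above 4 drawn as 4) for the 26 TRIM genes that passed the test (rows, from the largest rise to the largest fall) in each library (columns). iKO 1 is paler than the other iKO libraries for most genes of the cluster, Ctrl 5 stands out for Trim30b and Trim30c, and iKO 2 for Trim29.

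By domain, no member of the PHD-bromodomain group (Trim24, Trim28, Trim33, Trim66) was higher, and Trim28 alone was lower. Of the 4 NHL-repeat members Trim3 was higher and Trim32 lower, and of the 4 members with a COS box and fibronectin domain only Trim36 passed. Among tested members without a SPRY or other C-terminal domain, 3 of 4 were higher (Trim29, Trim56, Trim8). Trim37, Trim59 and Trim63, all lower, belong to smaller groups (MATH domain, membrane anchor, muscle RING). Of the 18 other tested members outside the cluster that were listed with the SPRY genes, 5 were higher (Trim14, Trim21, Trim26, Trim41, Trim47) and 2 lower (Trim27, Trim35). These are 27.8% and 11.1%, beside 25.0% and 21.4% of all genes.

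Of the 24 members that did not pass, 16 had a log2 fold change under 0.25 in size. The 6 of them with the highest levels were Trim44, Trim33, Trim24, Trim2, Trim11 and Trim39. Trim33, a corepressor of SMAD signalling, was at 78.5 ± 5.43 CPM in Ctrl and 78.6 ± 4.50 CPM in iKO (log2 fold change 0.00, SE 0.06). Its relative Trim24, a coregulator of nuclear receptors, was at 55.3 ± 3.23 and 58.8 ± 4.19 CPM (0.09, SE 0.06). Trim11 and Trim39, SPRY ligases, had log2 fold changes of 0.06 (SE 0.09) and 0.16 (SE 0.13). Trim2, an NHL-repeat ligase of neurons, was at 65.3 CPM in iKO 1 and at 39.5 to 49.4 CPM in the rest of iKO (log2 fold change -0.06, SE 0.11). It was the only member that did not pass with a match to the ISRE core, and without Ctrl 5 and iKO 1 it was lower (-0.21, edgeR adjusted p = 0.0252). With the leukocyte covariate Trim2 was higher instead (0.62, adjusted p = 0.00876). The match of Trim2 lies 29 to 38 bases past a RefSeq start that is 94039 bases from the start of the gene in the deposited table, and the windows at its 4 other RefSeq starts held none. It is printed on the plus strand for comparison with those of the cluster.
Trim2 (chr3:84212791-84212820): ctgtcttagaGAAAAGGAAAccaaagctga

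Trim44, a member without a RING domain that removes ubiquitin, lay nearest the threshold among these 6. It was at 137 ± 14.8 CPM in Ctrl and 155 ± 9.66 CPM in iKO (log2 fold change 0.18, SE 0.07, edgeR adjusted p = 0.0614). It passed without Ctrl 1 (0.0309), without Ctrl 2 (0.0360), with DESeq2 (0.0335) and with the leukocyte covariate (0.0118, log2 fold change 0.56). Trim9, a neuronal ligase named after its values were seen, had the lowest log2 fold change, -1.40 (SE 0.57, edgeR adjusted p = 0.0590), at 0.582 to 2.49 CPM in Ctrl and 0 to 1.16 CPM in iKO. A value that misses the threshold does not show that these genes were equal in the groups.

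The 17 untested members were too low to measure in these tumours. Trim31, Trim42, Trim52, Trim58, Trim60 and Trim61 had 0 counts in every library. Trim15, Trim38, Trim40, Trim43a, Trim43b, Trim43c, Trim54, Trim55, Trim72, Trim75 and Trim80 had at most 27 counts in any library, the highest being Trim72 in iKO 2. Their level cannot be compared between groups at this depth.

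The order of the members by level per kilobase of exon shifted with the cluster. Trim28 was first in both groups, at 97.1 ± 2.46 CPM per kb in Ctrl and 83.0 ± 5.07 CPM per kb in iKO, and Trim35 second, at 40.5 ± 2.98 and 34.0 ± 4.86. Trim30a went from rank 22 of 67 in Ctrl (3.45 ± 0.224 CPM per kb) to rank 4 in iKO (26.8 ± 6.44). In iKO it stood beside Trim44 (27.4 ± 1.71), from which it did not differ beyond its spread. Trim21 went from rank 19 to 10, Trim12c from 23 to 11 and Trim30d from 34 to 18, while Trim59 went from rank 3 to 7.

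Family members under other names and partner proteins were taken from lists, and their counts stand beside 25.0% higher and 21.4% lower among all genes. Of Pml, Mid1, Mid2 and Mefv, 3 of 4 were higher. Mefv, which encodes pyrin of myeloid cells and passed the filter on low counts through its iKO libraries, went from 0.162 ± 0.301 to 14.0 ± 7.23 CPM (log2 fold change 6.48). Pml, the organiser of nuclear bodies, went from 52.2 ± 3.69 to 103 ± 16.4 CPM (0.98), and Mid1, a microtubule-bound ligase, from 6.92 ± 1.78 to 10.8 ± 2.22 CPM (0.63). Of 17 signalling proteins and substrates tied to the family, 7 were higher and 2 lower. The kinases Ikbke (log2 fold change 1.29) and Tbk1 (0.40), the adaptor Ticam1 (0.58), Traf6 (0.33) and Tab2 (0.23) had the smallest p-values, while Trim6 and Trim26 are among the ligases that act on these kinases. Of 10 ubiquitin-conjugating enzymes and cofactors, Ube2v1 was higher (0.80, at under 1 CPM in both groups on average) and Ube2e3, Ube2v2, Ube2w and Ube2e1 were lower, by 0.32, 0.38, 0.30 and 0.21 on the log2 scale.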

How the data were processed

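The deposited table held raw counts for each Ensembl gene, not normalized by the authors, in 1 column per library. Per the submitters' processing notes, reads were placed on mm10. The sources used here name no aligner or counter and no strand setting. Poly-A RNA was made into libraries that do not keep strand, per the labels' protocols. In every library 68.7% to 70.8% of counts from 1 to 10 were even, so both mates of a pair may have been counted, and floors and intervals (95%, exact binomial) cover counting error only. Gene length in base pairs was taken from the deposited table and used only for levels per kilobase. All 12 libraries have 1 batch label. The series calls the libraries single cell, but the table has 1 column per tumour library and was treated as bulk.

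Groups were compared with edgeR 4.0.16 (R 4.3.3) by the robust quasi-likelihood test with TMM factors, group as the only term and all 12 libraries, on genes kept by filterByExpr (minimum count 10, minimum total 15). These 16164 genes held 99.9% of all counts. P-values were adjusted by Benjamini-Hochberg over all of them, and the threshold was 0.05. CPM values use TMM-scaled library sizes. The SE is approximate, the size of the log2 fold change divided by the root of F. The lowest chi-square per degree of freedom between libraries of a group was 7.47 (genes with at least 20 counts), more than counting error gives. Each library was counted as 1 replicate, although this value cannot tell tumours of 1 mouse from tumours of different mice. On simulated counts for iKO against Ctrl (15962 genes), the test recovered 36.8% of 57 genes changed by 0.5 on the log2 scale, 66.7% of 69 changed by 1 and 94.6% of 74 changed by 2. Alternatives were DESeq2 1.42.0, limma 3.58.1 (voom), other scalings, no filter, a replicate block, libraries left out and a leukocyte covariate.

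Exon overlaps and shared stretches of 100 bases came from GENCODE M21, promoter windows from RefSeq (GRCm38.p6, matched by symbol). Windows were not found for Trim3, Trim8, Trim11, Trim14, Trim16, Trim17, Trim29, Trim33, Trim35, Trim36, Trim43b, Trim43c, Trim50, Trim55 and Trim65. Named were every member that passed, every member of the cluster and the 6 most abundant members that did not pass, and from each related list up to 5 members that passed. 1 gene that meets the symbol rule is not reported here. The members, lists, tests and alternatives were chosen with earlier results of these data known. The keratins were chosen after their values were seen.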

Additional observations from a re-analysis of the deposited data

Results flagged for a closer look

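In 66 groups of 6 libraries (33 named members in Ctrl and in iKO), 8 had a library that stood farther from the others than Dixon's 95% critical value for gap over range. Chance alone gives such a library in about 1 of 20 groups. Of the 8, 5 were in Ctrl 5, 2 in iKO 1 and 1 in iKO 2, and no cause was tested.

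In Ctrl 5, Trim30b was at 0.716 CPM beside at most 0.0582 CPM in the other Ctrl libraries, and Trim30c was at 0.661 CPM beside 0. Trim47 was at 6.03 CPM beside 3.19 to 4.13 CPM. Trim37 and Trim59 were lowest in this library: Trim37 at 98.9 CPM beside 107 to 111 CPM, and Trim59 at 76.7 CPM beside 86.0 to 88.8 CPM. In all 5 genes Ctrl 5 thus lay on the side of iKO, and it was also the Ctrl library with the highest leukocyte score (4.58).

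In iKO 1, Trim30a was at 56.8 CPM beside 116 to 128 CPM in the other iKO libraries, and Trim35 was at 200.1 CPM beside 139.9 to 159 CPM. In both genes iKO 1 lay on the side of Ctrl, and it was the iKO library with the lowest leukocyte score (4.22). In iKO 2, Trim29 was at 28.4 CPM beside 0.356 to 3.43 CPM in the others.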

How the results depend on the processing

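Over the 12 fits that each left out 1 library, 18 to 21 members were higher, 6 to 8 lower and 9 to 10 of the cluster higher, against 19, 7 and 9 with all libraries. DESeq2, limma voom, other scalings and no filter gave 18 to 21 higher, 7 to 9 lower and 9 of the cluster. Without both Ctrl 5 and iKO 1 there were 20 higher and 9 lower, and without both iKO 2 and iKO 3, 19 and 6. With the replicate block 17 were higher, 8 lower and 9 of the cluster higher, and the calls of Trim29 (log2 fold change 2.22, adjusted p = 0.0841) and Trim41 (0.15, adjusted p = 0.0673) were lost. Same-numbered libraries correlated between -0.13 and 0.25, and 1 of 6 correlated best with its own number, so the numbers were not taken as pairs.

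With the leukocyte covariate 10 members were higher, 1 lower and 5 of the cluster higher. Of the 10, 8 were among the 19 higher without the covariate, and Trim2 and Trim44 (0.56) were gained. The values that changed sign were Trim30c (-1.24), Trim47 (-0.66), Trim35 (0.19), Trim32 (0.10), Trim2 (0.62), Trim11 (-0.26) and Trim39 (-0.12), and the cause was not tested. Of 660 other values of single members, 631 kept their direction and side of the threshold, 17 lost a call and 6 gained one. The 6 that changed sign were of Trim33, which lay near 0 and passed in none of them: total count scaling (-0.027), no filter (-0.054), without both Ctrl 5 and iKO 1 (-0.036), and without Ctrl 5, iKO 1 or iKO 3. Its fits that left out 1 library ran from -0.023 to 0.041. With the longer motif spelling the share of promoters with a match went from 57.1% to 21.4% for higher members and from 3.99% to 0.303% for all genes, since fewer windows can hold more letters. Members under 1 CPM rest on few counts a library, which limits Trim6, Trim34b and, in Ctrl, Trim30b and Trim30c.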
